A study of Mus musculus with 18 samples.

Results

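The names of the tumor and liver samples of this series carry one of 2 tags, E20 or E19, whose meaning is not stated in the sources used here. The tumors whose names hold E20 were compared with those whose names hold E19, 4 tumors (1, 6, 8 and 12) against 7 (3, 4, 5, 7, 9, 10 and 11), so 11 of the 18 samples. Tumor 2, which also bears the E20 tag, was left out because the single gene Siglece made up 82.9% of its total. The tags also divide the 6 non-tumoral livers, 4 E20 and 2 E19, and these served as a second, separate set.

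All samples came from untreated male Alb-R26Met mice, first-generation hybrids of C57BL/6JRj and 129S2/SvPasOrlRj, and the 2 tags did not differ in any of these respects. In these mice Cre recombinase under the albumin (Alb) promoter, active in cells of the hepatocyte lineage, removes a stop cassette from a mouse-human chimeric Met transgene in the Rosa26 locus. Tumors arise spontaneously and are hepatocellular carcinomas (HCC), and the livers came from Alb-R26Met mice in which no tumor had formed. E20 tumors were taken at 49 to 72 weeks (median 62) and E19 tumors at 49 to 72 weeks (median 63), E20 livers at 55 to 71 weeks and E19 livers at 52 and 55 weeks. Tumors 11 (E19) and 12 (E20) grew in 1 mouse, so the 11 tumors stand for 10 mice. The libraries were made from poly-A purified RNA that was fragmented and copied with random primers, and the values are TPM (a level scaled to transcript length and to a fixed total per sample) rounded to whole numbers. The file and the study call them counts. They were read as TPM because, in a comparison of 50 genes with an unrounded TPM table of the same samples, 49 lay within 0.5 in every sample, as did all 182 entries of at least 10 in that table. The totals of the 11 tumors ranged from 849707 to 907513, and the reads behind a value are not known.

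The 11 tumors carried liver RNA. Alb, the main plasma protein of hepatocytes, lay between 34663 and 53033 TPM in the E20 tumors and between 22923 and 52085 in the E19 tumors, and Met between 102 and 207 and between 107 and 133. Siglece, a lectin of myeloid cells, took 21.5% to 32.7% of the total in E20 tumors and 24.2% to 53.4% in E19 tumors, and its part in the results below was tested only by leaving out tumors 7 and 11, the E19 tumors with the highest shares, and by keeping it in the total of the noncoding share.

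Cells keep a part of their RNA in the nucleus. Some long noncoding RNAs stay there for good, such as Malat1 at nuclear speckles and Neat1 at paraspeckles, and some messenger RNAs of splicing factors wait there with unspliced introns. Messenger RNAs of ribosomal and mitochondrial proteins are short, stable and mostly in the cytoplasm, where they are translated. Small nucleolar RNAs are cut out of introns and guide the modification of ribosomal RNA, and they carry no poly-A tail.

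The RNAs with the largest differences include some with known elements at their ends, which are shown here from GENCODE vM21 transcripts on GRCm38. Malat1 and the long form of Neat1 do not end in an added poly-A tail. Their ends hold U-rich and A-rich runs that can fold into a triple helix, and both runs are in capitals (T stands for U). The Malat1 stretch is chr19:5795982-5796047 on the minus strand, bases 6626 to 6691 of the 6983 bases of the transcript, and the Neat1 stretch is chr19:5824708-5824787 on the minus strand, the last 80 of 20771 bases.
Malat1: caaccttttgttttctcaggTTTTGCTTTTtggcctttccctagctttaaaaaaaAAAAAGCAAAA
Neat1: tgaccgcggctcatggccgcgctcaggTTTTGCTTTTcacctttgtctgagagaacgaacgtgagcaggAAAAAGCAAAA
Snora30 and Snora26 are small nucleolar RNAs of the H/ACA class, which guide pseudouridylation, and their ACA box, 3 bases before the end, is in capitals. Snora30 (chr7:127527874-127528003, plus strand) lies within Srcap, and Snora26 (chr5:74093530-74093650, plus strand) within the noncoding gene Dancr, so their reads may come in part from the host RNAs, which was not tested.
Snora30: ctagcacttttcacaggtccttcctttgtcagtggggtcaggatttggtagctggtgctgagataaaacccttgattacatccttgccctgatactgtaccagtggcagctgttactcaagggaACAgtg
Snora26: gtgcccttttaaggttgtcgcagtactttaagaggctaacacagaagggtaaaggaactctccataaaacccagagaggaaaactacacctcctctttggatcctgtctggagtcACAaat
At the other end of the scale stands Abracl, whose short coding sequence is shown whole as the example of a short messenger RNA that was lower in E20 tumors. It is spliced from chr10:18011632-18018899 on the minus strand, with start and stop codons in capitals (246 of the 846 bases of the transcript).
Abracl: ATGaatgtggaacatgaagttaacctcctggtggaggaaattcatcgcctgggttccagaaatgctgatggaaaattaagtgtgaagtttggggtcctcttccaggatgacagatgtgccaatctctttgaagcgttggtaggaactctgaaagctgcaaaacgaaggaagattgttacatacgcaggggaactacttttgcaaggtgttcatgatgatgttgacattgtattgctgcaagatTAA
The A-rich run aaaaagcaaaa stands in some GENCODE transcript of 186 of the 11246 tested genes that have one (1.65%), and its reverse complement, with which the U-rich run overlaps, in 238 (2.12%). By the test described next, 36 (19.4%) of the 186 genes were higher and 4 (2.15%) lower in E20 tumors, and 41 (17.2%) of the 238 genes were higher and 7 (2.94%) lower, against 11.6% and 3.95% of all genes. The shares of both strands were thus near each other. Genes with either run were not matched to other genes by transcript length. When protein-coding genes were ranked by transcript length and cut into 5 groups, 20.9% of the longest group were higher and 0.981% lower. In the shortest group 2.27% were higher and 10.3% lower. Whether the shares for either run differ from those of genes of like length was not tested.

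Each gene was tested with limma on log2(scaled TPM + 1), where the scaled TPM is the deposited value divided by a factor per sample that sets most genes level between samples. Differences are given on this log2 scale as E20 minus E19 with their standard error (SE), and a gene was called higher or lower at an adjusted p (Benjamini-Hochberg, over all genes tested) under 0.05. Of 12014 genes tested in tumors, 1396 (11.6%) were higher and 474 (3.95%) lower in E20 tumors. Differences of at least 2-fold were found for 599 of the higher genes (4.99% of all tested) and for 10 of the lower ones (0.0832%). With the deposited values left unscaled, the median of all genes moved from 0.01 to 0.29, and 2880 genes were higher and 11 lower, so that higher genes made up 99.6% of the calls in place of 74.7%. All 1396 higher genes were also called higher without scaling. All 474 lower genes were below 0 there too, but 11 of them passed the test, so lower means lower relative to the bulk of genes.

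Malat1, which lies at nuclear speckles with the splicing machinery, stood at 2921, 2629, 2469 and 2722 TPM in E20 tumors 1, 6, 8 and 12. In the 7 E19 tumors it ranged from 182 to 547 TPM with a median of 279. Every E20 tumor was thus above every E19 tumor, and the fitted difference was 2.85 (SE 0.33), or 7.22-fold, with an adjusted p of 9.33e-05 (limma). Tumor 2, left out of the fit, had 529 TPM. That value cannot be set directly against the others, since Siglece took 82.9% of the fixed total there and Alb stood at only 6050 TPM. Neat1, the architectural RNA of paraspeckles, showed the same order. It stood at 177, 188, 243 and 202 TPM in the E20 tumors and at 11 to 33 TPM (median 19) in the E19 tumors, a difference of 3.04 (SE 0.28, adjusted p = 1.71e-05).

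Genes were named from the top of the list only if their mean log2 level was at least 2 and the tags did not overlap, and clone symbols were left out. Under this rule the other leading RNAs were noncoding RNAs, transcribed pseudogenes and 1 locus without an annotated type, AI480526. The small nucleolar RNA gene Gm12238, below that level, stood at 14, 14, 33 and 7 TPM in E20 tumors and was listed at 0 in every E19 tumor. It reached the level for testing through the 4 E20 tumors alone. Its fitted difference, the largest of all genes tested, therefore carries no weight as a test. Cyp2d37-ps, a pseudogene of a cytochrome P450, stood at 247, 150, 229 and 154 TPM in E20 tumors and at 13 to 37 TPM in E19 tumors, a difference of 2.79 (SE 0.30, adjusted p = 4.78e-05). Mug-ps1, a pseudogene next to the murinoglobulin genes, stood at 88, 27, 51 and 52 TPM against 1 to 9 TPM (2.80, SE 0.40). Neither overlapped between the tags, which the rule required. Both share sequence with functional relatives, so their levels are less certain where reads were divided between copies. Lncpint, a p53-regulated long noncoding RNA, stood at 23, 13, 19 and 16 TPM against 1 to 5 TPM (2.25, SE 0.29). The clone locus AI480526 stood at 27, 13, 21 and 11 TPM against 0 to 3 TPM (2.53, SE 0.35), and the long noncoding RNAs C730036E19Rik and 4632427E13Rik were 2.79 (SE 0.49) and 2.32 (SE 0.22) higher.

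Snora30 and Snora26, whose sequences stand above, were also among the 8 highest by this rule. Snora30 was at 54, 85, 80 and 101 TPM in E20 tumors and at 0 to 23 TPM in E19 tumors, with no overlap but with 2 E19 tumors at 0, and its difference of 3.11 had an SE of 0.96 and an adjusted p of 0.0459. Snora26 was at 37, 28, 27 and 34 TPM against 0 to 11 TPM (2.64, SE 0.51, adjusted p = 0.00422). Of their hosts, Srcap, a chromatin remodeler, was 1.097 higher in E20 tumors (SE 0.13, adjusted p = 9.52e-05), and Dancr differed by 0.35 (SE 0.16, adjusted p = 0.166). Whether the hosts differed from each other was not tested.

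**Figure D1:**
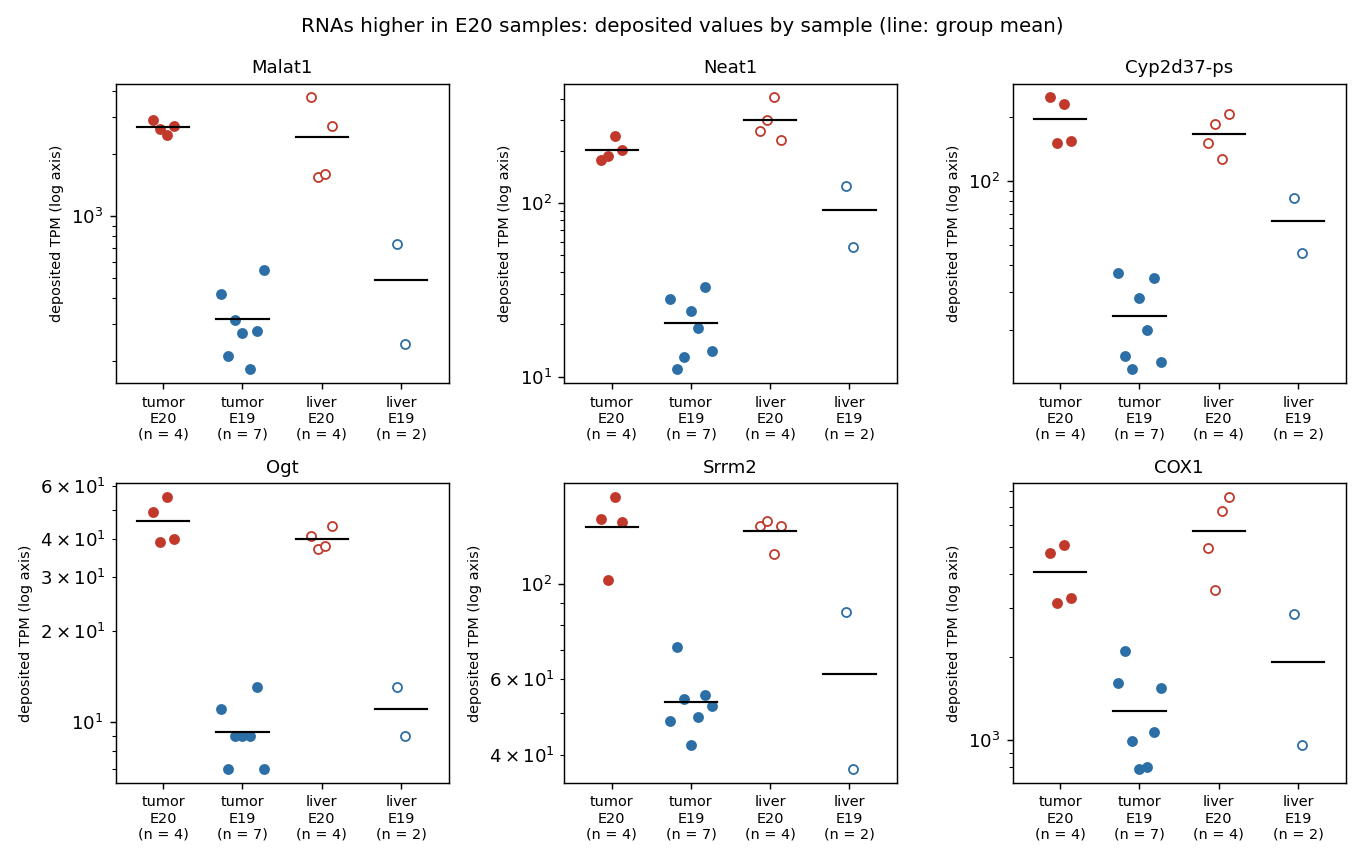
Deposited TPM (log axis) of 6 RNAs that were higher in E20 tumors, with 1 point per sample, filled for tumors and open for livers, red for E20 and blue for E19, and a line at each group mean. In all 6 panels the 4 E20 tumors lie above the 7 E19 tumors, and for Malat1 the E20 tumors sit between 2469 and 2921 TPM and the E19 tumors between 182 and 547; tumor 2 is not shown.

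By annotation, more noncoding RNA genes were higher than lower in E20 tumors. Of 361 tested, 123 were higher and 3 lower (Rn7s1, 2900009J06Rik and Epb41l4aos), and their median difference was 0.55, against -0.01 for 11256 protein-coding genes, of which 1026 were higher and 470 lower. Among 321 long noncoding RNAs 114 were higher. Among 23 small nucleolar RNA genes 5 were higher, namely Snora30, Snora26, Snora31, Snora16a and Gm12238, and none lower. Of these, Gm12238 was tested only through its values in E20 tumors. Of 54 pseudogenes 17 were higher and none lower, with a median of 0.42. A further 342 tested loci have no entry in the RefSeq table of GRCm38.p6, and 230 of these were higher and 1 lower (A230065C20Rik), with a median of 1.39. Of these loci 276 are named as RIKEN cDNA or other clone sequences, and they held 204 of the 230 higher calls. The share of these classes that was higher lay above the 11.6% of all genes in each case. Many of these genes are near the floor of the rounded values: with a minimum of 5 in place of 1 in at least 4 tumors, 32 noncoding genes and 18 of the loci without an entry were called higher. Single E20 tumors also moved these counts, since without tumor 1, 8 or 12 the higher noncoding genes numbered 68, 69 and 74, and without tumor 1, 6, 8 or 12 the higher loci without an entry numbered 92, 102, 93 and 102.

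The share of the whole sample in noncoding RNA genes, with Siglece left out of the total, separated the tags. It was 0.953%, 1.34%, 0.946% and 0.952% in E20 tumors 1, 6, 8 and 12 and ranged from 0.264% to 0.569% (median 0.376%) in E19 tumors. The means were 1.05% ± 0.195 (SD, n = 4) and 0.384% ± 0.118 (SD, n = 7), with an exact permutation p of 0.00606 (two-sided), the smallest that 330 assignments allow, and 0.0109 after adjustment over 9 such measures. Without Malat1 the difference in means was 0.2997 in place of 0.663 percentage points, and with Siglece kept in the total it was 0.533 points, both with the same exact p. Long noncoding RNAs alone gave 0.862% ± 0.185 against 0.233% ± 0.0437. Small nucleolar RNA genes gave 0.119% ± 0.0237 against 0.0786% ± 0.0377, an overlap with an exact p of 0.103. Pseudogenes (exact p = 0.618) and loci without a RefSeq entry (exact p = 0.933) did not separate as shares. The last of these shares was carried by Gm26917, a locus of 17860 to 85203 TPM in the 11 tumors, and when GENCODE types placed it among the noncoding genes the difference in noncoding share was 0.124 points with an exact p of 0.945, but 0.693 points with an exact p of 0.00606 when the other such loci were added without it.

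More genes were detected in E20 tumors. The number of genes with a value above 0 was 13478, 13270, 13819 and 13339 in E20 tumors and 11508 to 12394 (median 12069) in E19 tumors, so the groups did not overlap (exact permutation p = 0.00606, adjusted 0.0109). When genes were counted at 1 scaled TPM or more, the difference was 633 genes in place of 1518, with an exact p of 0.273, and with tumor 2, which had 8718 genes above 0, it was 566 with an exact p of 0.581.

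**Figure D2:**
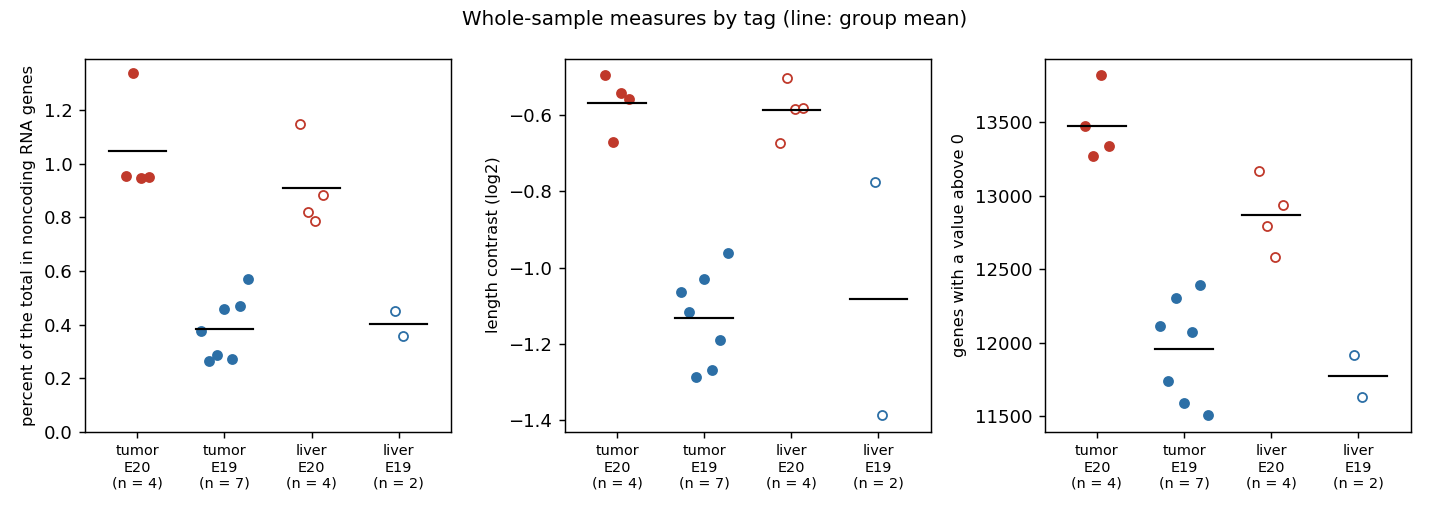
For each tumor and liver, the percent of the total (without Siglece) in noncoding RNA genes, the length contrast defined in the text (log2) and the number of genes with a value above 0, with 1 point per sample, filled for tumors and open for livers, and a line at each group mean. In all 3 panels the 4 E20 tumors lie above the 7 E19 tumors, with 13270 to 13819 against 11508 to 12394 genes, and the 4 E20 livers above the 2 E19 livers.

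Of a list of nuclear long noncoding RNAs with 23 members in the files, 15 were tested. Of these 8 were higher in E20 tumors and none lower, with a median of 0.87, where 11.6% of all genes were higher and 3.95% lower. The 8 calls became 5 without tumor 1, 6 or 8. Besides Malat1 and Neat1 these include Kcnq1ot1 (2.07, SE 0.25), the silencing RNA of an imprinted cluster, Firre (1.56, SE 0.15), which organizes nuclear chromatin, and Airn (1.996, SE 0.53), the antisense RNA of imprinted Igf2r. Airn overlapped between the tags, since E19 tumor 10 had 10 TPM and E20 tumor 12 had 6. Gm26917, the most abundant member, differed by -0.17 (adjusted p = 0.799). Among 16 host genes of small nucleolar RNAs, 4 were higher (Snhg17, Snhg20, Snhg7 and Snhg15) and 1 lower (Epb41l4aos), while the most abundant, Gas5, Snhg3 and Snhg8, did not pass the test (0.42, 0.97 and -0.23).

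Many messenger RNAs on a list of splicing regulators and some other genes known for retained introns were higher in E20 tumors too. Intron reads and the place of these RNAs in the cell were not measured. The list was not matched to genes of like length. Of 40 tested, 28 were higher and none lower, with a median of 0.93, where 11.6% of all genes were higher and 3.95% lower. Of the 40 genes 26 did not overlap between the tags, against 9.44% of all genes that were higher without overlap. Pnisr, an arginine-serine-rich splicing protein, was at 18, 15, 18 and 13 TPM in E20 tumors and at 2 or 3 TPM in every E19 tumor (1.98, SE 0.17, adjusted p = 6.15e-06). Ogt, the O-GlcNAc transferase, whose RNA is kept in the nucleus by a detained intron, was at 49, 39, 55 and 40 TPM against 7 to 13 TPM (1.90, SE 0.15, adjusted p = 5.2e-06). These 2 genes were chosen for display after their values were seen. Clk4, a kinase of splicing factors, was 1.43 higher (SE 0.14), and Srrm2, a scaffold of nuclear speckles, stood at 141, 102, 159 and 139 TPM against 42 to 71 TPM (1.03, SE 0.16, adjusted p = 0.000988). Rsrp1 passed the test at 0.97 (adjusted p = 0.0481) but overlapped, and Ddx5, an RNA helicase, did not pass (0.50, adjusted p = 0.129).

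Very long messenger RNAs of chromatin and transcription regulators did likewise. Of 40 tested, 29 were higher and none lower (median 0.77), where 11.6% of all genes were higher and 3.95% lower. Without overlap 27 were higher, against 9.44% of all genes. In the longest of 5 groups of protein-coding genes by coding length, 23.8% were higher. The list was not matched to genes of like length. Kmt2a, a histone H3 lysine methyltransferase, was at 19, 15, 15 and 14 TPM in E20 tumors and at 3 to 5 TPM in E19 tumors (1.47, SE 0.20, adjusted p = 0.000351). Ubr4, a ubiquitin ligase with a coding sequence of 15540 bases, was at 138, 83, 125 and 112 TPM against 39 to 59 TPM (0.94, SE 0.15, adjusted p = 0.00109). Huwe1, a ubiquitin ligase of like size, was at 77, 45, 64 and 61 TPM against 24 to 38 TPM (0.77, SE 0.18), and Chd4, the remodeler of the NuRD complex, differed by 0.19 and did not pass (adjusted p = 0.491).

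The mitochondrial genome gave a mixed picture. Of its 10 tested genes 3 were higher in E20 tumors and none lower, where 11.6% of all genes were higher. COX1, the core subunit of cytochrome oxidase, was at 4750, 3127, 5081 and 3280 TPM against 787 to 2097 TPM (1.42, SE 0.31, adjusted p = 0.0094), and ND4L was at 1122, 1180, 1156 and 772 TPM against 124 to 391 TPM (1.98, SE 0.41). ND6 was the remaining one (1.09, SE 0.30). COX3 and ND3, as abundant, differed by 0.48 and -0.34 and did not pass the test.

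**Figure D3:**
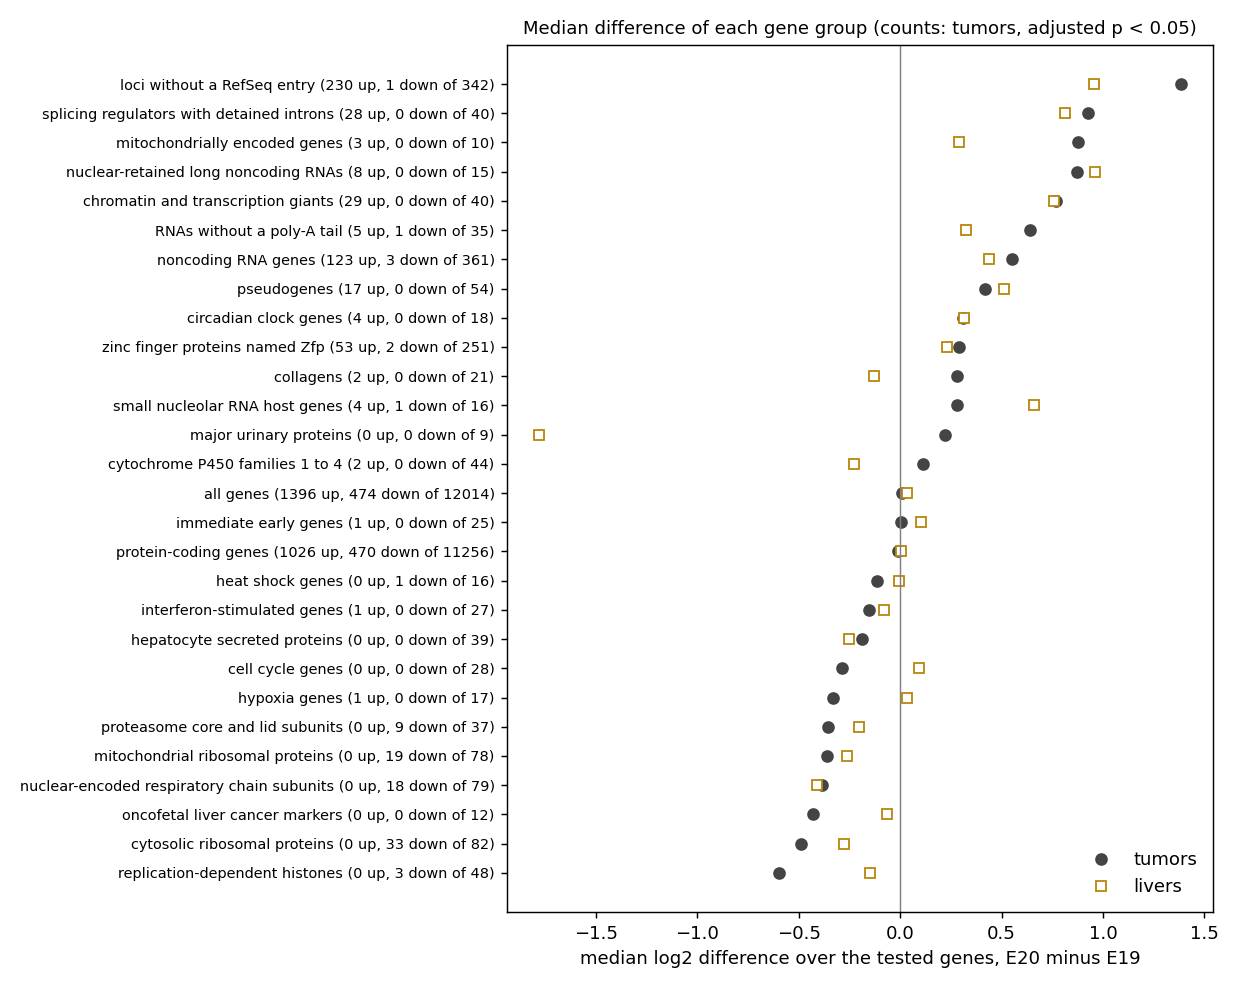
Median log2 difference (E20 minus E19) over the tested genes of each gene group, with filled circles for tumors and open squares for livers, and the numbers of genes higher and lower in E20 tumors of those tested beside each name. Splicing regulators (0.93 in tumors, 0.81 in livers) and chromatin giants (0.77 and 0.76) lie to the right of all genes, and cytosolic ribosomal proteins (-0.49 and -0.28) to the left.

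The RNAs lower in E20 tumors were short. Protein-coding genes called lower had a median coding length of 682.5 bases and those called higher of 2574 bases, against 1380 bases for the 11211 tested genes with a coding length. The 8 with the lowest differences that did not overlap after scaling were Bcl7c, Saysd1, Ier3ip1, Chchd1, Pon2, Rn7s1, Glud1 and Abracl. Ier3ip1, a small protein of the endoplasmic reticulum, stood at 10.3, 10.2, 7.16 and 9.01 scaled TPM in E20 tumors and at 15.5 to 22.9 scaled TPM in E19 tumors, a difference of -1.07 (SE 0.15, adjusted p = 0.000404). Saysd1 stood at 7.11, 9.18, 11.1 and 10.8 against 12.0 to 32.3 scaled TPM (-1.10, SE 0.23), and Abracl at 7.11, 5.10, 4.77 and 5.40 against 7.64 to 16.3 (-0.96, SE 0.18). After scaling the groups lay apart, but in the deposited values all 8 of these genes overlapped, as Ier3ip1 did with 9 to 13 against 12 to 24 TPM. Bcl7c, a subunit of the SWI/SNF complexes, rested on tumor 1 (3.95 scaled TPM against 16.7 to 22.5 in the other E20 tumors) for part of its difference of -1.14 (SE 0.35). Chchd1 (-1.06), a mitochondrial ribosomal protein, and Glud1 (-0.97), glutamate dehydrogenase, were also at their lowest in tumor 1. Pon2, a membrane-bound lactonase, differed by -1.03 (SE 0.21). Of noncoding RNAs with a mean log2 level of at least 2, Rn7s1, the RNA of the signal recognition particle (-0.996, SE 0.26), and Epb41l4aos (-0.67, SE 0.16) were lower without overlap. Below that level 2900009J06Rik was lower too (-0.83, SE 0.19), at 0 or 1 TPM in all 11 tumors. AY036118 (-1.17, adjusted p = 0.0801) and AI506816 (-0.69, adjusted p = 0.0972), with the next smallest p, did not pass.

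**Figure D4:**
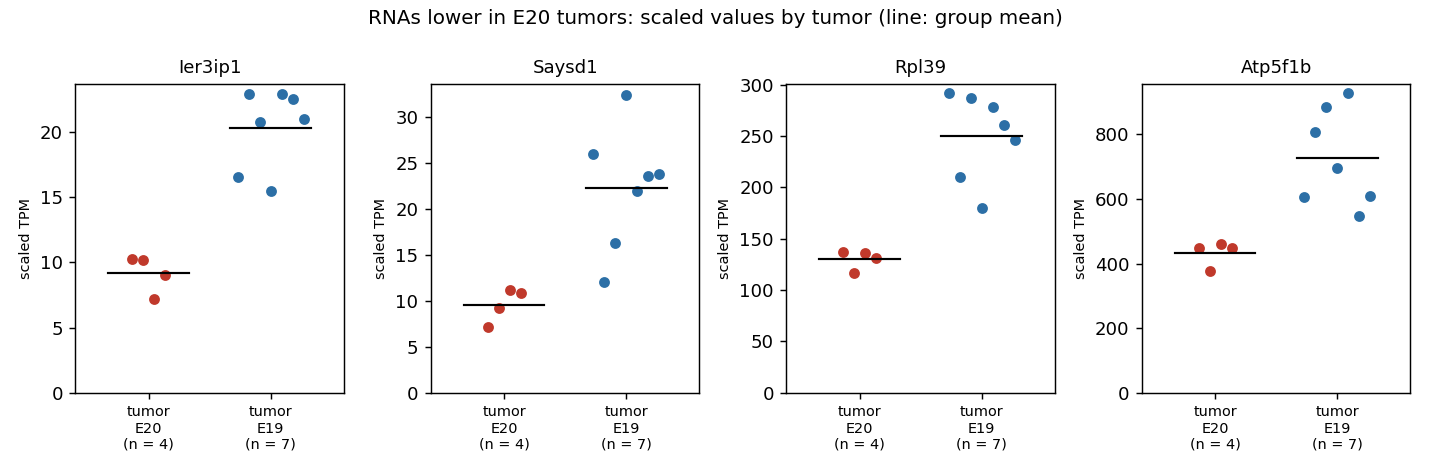
Scaled TPM (linear axis from 0) of 4 messenger RNAs that were lower in E20 tumors, with 1 point per tumor and a line at each group mean. The E20 tumors lie below every E19 tumor in each panel, as in Rpl39 with 116 to 138 against 180 to 292 scaled TPM.

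Of 82 cytosolic ribosomal protein genes tested, 33 were lower in E20 tumors and none higher, with a median of -0.49, where 3.95% of all genes were lower. Of these differences 81 were below 0, and 28 genes did not overlap between the tags, against 3.59% of all genes that were lower without overlap. Rpl39 stood at 138, 116, 136 and 131 scaled TPM in E20 tumors and at 180 to 292 in E19 tumors (-0.92, SE 0.15, adjusted p = 0.00158), and Rps16 at 266, 315, 257 and 248 against 385 to 566 (-0.78, SE 0.15). The most abundant members, Rpl41, Rplp1 and Rps29, were below 0 (-0.59, -0.52 and -0.39) and did not pass the test. Many ribosomal protein genes have near-identical processed pseudogenes, which makes single levels less certain. Without tumor 1, 8 or 12 the 33 lower calls became 15, 14 and 15. Unscaled, none of these genes was lower, the median was -0.18, and the sum of the list was 18023 to 21177 TPM in E20 tumors and 16930 to 29747 in E19 tumors.

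Nuclear genes for the respiratory chain, for mitochondrial ribosomes and for the proteasome followed the same direction, where 3.95% of all genes were lower. Of 79 respiratory chain genes 18 were lower and none higher (median -0.39). Atp5f1b, the catalytic subunit of ATP synthase, stood at 448, 375, 460 and 447 scaled TPM in E20 tumors and at 547 to 930 in E19 tumors (-0.72, SE 0.18, adjusted p = 0.0149), while Atp5f1a and Uqcrq differed by -0.39 and -0.24 and did not pass. Of 78 mitochondrial ribosomal protein genes 19 were lower and none higher (median -0.36), among them Mrpl53 (-0.76, SE 0.13). Of 37 proteasome genes 9 were lower and none higher (median -0.35), among them Psmb5, a catalytic subunit (-0.91, SE 0.20), Psmd8 (-0.53) and Psmb6 (-0.50). Histones whose RNAs end in a stem loop in place of a tail had a median of -0.60 over 48 tested genes. Of these genes 3 (H3c10, H4c14 and H4c8), or 6.25%, were lower, near the share of all genes, and none higher. In the tumors of the shared mouse the histone median was 0.07, with 26 genes higher and 22 lower in tumor 12. Without scaling no gene of these 4 lists was lower, and the medians were -0.08 for the respiratory chain, -0.07 for mitochondrial ribosomes, -0.05 for the proteasome and -0.35 for histones. Leaving out both tumors of the shared mouse gave 14 lower calls among cytosolic ribosomal proteins, 6 in the respiratory chain and 8 among mitochondrial ribosomal proteins. The respiratory chain calls became 7, 8, 4 and 6 without E20 tumor 1, 6, 8 or 12 and 8 and 9 without E19 tumor 5 or 9, and the mitochondrial ribosomal calls became 8, 6 and 5 without E20 tumor 1, 8 or 12 and 9 and 12 without E19 tumor 5 or 9.

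Few liver-specific genes and markers of other cells were called, where 15.6% of all genes tested were called in either direction. None of 39 genes for secreted hepatocyte proteins was called, with Alb at -0.10, Apoa1 at -0.25 and Trf at -0.18. None of 28 cell cycle genes and none of 12 oncofetal tumor markers was called. Most were below 0 all the same, 26 of the 28 (median -0.28) and 10 of the 12 (median -0.43). Without scaling these medians were -0.12 and -0.13. Among 14 lists of cell type markers, calls were limited to Hnf4a (0.47, a hepatocyte factor) and Plin4 (1.35, a lipid droplet protein of adipocytes), both of which overlapped between the tags. No marker of T and natural killer cells reached the level for testing, and 8 of the 14 lists had at most 2 tested genes, so that they could show little. The summed Kupffer cell and macrophage markers were 43 to 126 TPM in E20 and 25 to 244 TPM in E19 tumors, and the adipocyte markers 16 to 50 and 6 to 43 TPM. In tumor pieces fewer cells of a type and less RNA per cell cannot be told apart.

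Across protein-coding genes the difference was related to length. When the 11211 genes were ranked by coding length and cut into 5 groups of equal size, the shortest group (111 to 738 bases) had a median difference of -0.26, and the following groups -0.14, -0.02, 0.10 and 0.32, up to coding sequences of 2475 to 26397 bases. Of the shortest group, 1.6% were higher and 11.3% lower, and of the longest group 23.8% were higher and 0.268% lower. Ranking by transcript length, genomic span or number of exons gave like series, with medians of -0.25 to 0.28, -0.21 to 0.25 and -0.14 to 0.26 from the first to the last group. GC content gave none, with medians between -0.04 and 0.00. The level of a gene was related too, with medians of 0.12 in the least and -0.21 in the most abundant group, so length was also read within 3 classes of level. The longest group was above the shortest in each, at 0.32 against -0.08 in the lowest class, 0.38 against -0.24 in the middle class and 0.23 against -0.34 in the highest class.

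**Figure D5:**
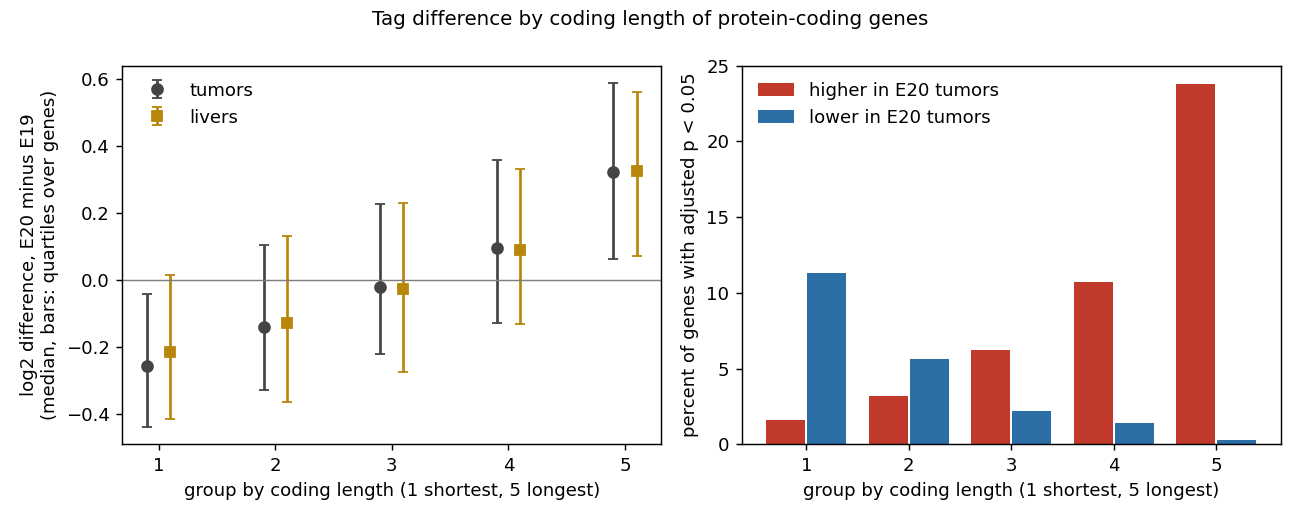
Left, median log2 difference (E20 minus E19, bars for the quartiles over genes) in each of the 5 groups by coding length of protein-coding genes, circles for tumors and squares for livers; right, percent of genes higher and lower in E20 tumors. The tumor medians run from -0.26 in the shortest to 0.32 in the longest group, the percent higher from 1.6% to 23.8% and the percent lower from 11.3% to 0.268%.

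A single value per tumor says the same. The length contrast is the mean log2(scaled TPM + 1) of the longest group minus that of the shortest group. It was -0.50, -0.67, -0.54 and -0.56 in E20 tumors 1, 6, 8 and 12 and -1.29 to -0.96 in E19 tumors, with means of -0.57 ± 0.07 (SD, n = 4) and -1.13 ± 0.12 (SD, n = 7) and an exact permutation p of 0.00606 (adjusted 0.0109). A negative value means that short messages were more abundant, and this was less so in every E20 tumor. The like contrast by number of exons gave 0.20 ± 0.05 and -0.17 ± 0.08 (exact p = 0.00606), and by GC content 0.27 ± 0.09 and 0.24 ± 0.13 (exact p = 0.721). A factor per sample nearly cancels within this contrast by construction, so the same difference (0.56) with unscaled values is no separate check.

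The tumors of the shared mouse gave a comparison within 1 animal. When the calls were made from the other 9 tumors, 810 genes were higher and 218 lower in E20 tumors. Of the 810 genes, 758 (93.6%) were higher in tumor 12 (E20) than in tumor 11 (E19), with a median of 0.72, and of the 218 genes, 190 (87.2%) were lower, with a median of -0.41. Among all 11701 genes tested there, 52.5% were higher and 47.1% lower in tumor 12. By list, splicing regulators (median 0.62) and cytosolic ribosomal proteins (-0.64) followed in this pair. The 10 tested mitochondrially encoded genes (-0.10, 5 higher and 5 lower) and the 16 host genes of small nucleolar RNAs (0.04, 8 and 8) did not. Siglece took 53.4% of the total in tumor 11 and 24.4% in tumor 12. With 1 tumor on each side this pair has no test of its own.

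The livers, which share no sample with the tumors, pointed the same way with fewer calls. Of 12712 genes tested, 380 (2.99%) were higher and 14 (0.11%) lower in the 4 E20 livers than in the 2 E19 livers. Of the higher genes, 338 had a mean log2 value under 2, and with a minimum of 5 in at least 2 livers 2 genes were called. Leaving out 1 liver at a time gave 0 to 41 calls, so single liver calls are not described. Malat1 was at 3746, 1551, 1603 and 2719 TPM in E20 livers and at 737 and 241 TPM in E19 livers (2.15, SE 0.47, adjusted p = 0.0617), and Neat1 at 261, 301, 408 and 232 against 126 and 56 TPM (1.53, SE 0.40, adjusted p = 0.118). Both were higher in every E20 liver, and neither passed the test. Of the mitochondrial genes called higher in E20 tumors, COX1 stood at 4950, 3496, 6764 and 7593 against 2868 and 959 TPM in livers. ND4L stood at 1109, 1044, 1873 and 1570 against 684 and 182 TPM. ND6 went the other way, at 139, 190, 152 and 152 against 243 and 245 TPM (-0.89).

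Of the 1377 genes higher in E20 tumors and tested in livers, 1330 (96.6%) were above 0 in livers, with a median of 0.64, against 52.6% of the 11520 genes tested in both. Of the 472 genes lower in E20 tumors, 429 (90.9%) were below 0 in livers, with a median of -0.32. Across the 11520 genes the tag differences of tumors and livers correlated with Pearson's r of 0.613, a description across genes, which are not independent replicates. By call, 7.19% of the tumor genes tested in livers were higher in livers, and 78.6% of the 126 liver genes tested in tumors were higher in tumors. The list medians were 0.96 for nuclear long noncoding RNAs, 0.81 for splicing regulators, 0.76 for chromatin giants, -0.28 for ribosomal proteins and -0.41 for the respiratory chain. The medians of the 5 coding length groups ran from -0.21 to 0.32. The 2 E19 livers were unlike each other in this. The length contrast was -0.67 to -0.50 in E20 livers, -0.78 in liver 4 and -1.39 in liver 5, so its difference rested largely on liver 5. How far the other liver values rest on liver 5 was not tested. The noncoding share was 0.788% to 1.15% in E20 livers and 0.356% and 0.450% in E19 livers, and genes above 0 numbered 12584 to 13166 against 11630 and 11914. With 4 and 2 livers the smallest two-sided p is 0.133, so none was computed.

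The tag difference in tumors was set against that in livers in a model with both. Of 12802 genes tested, 2 (0.0156%) had an adjusted p under 0.05, and 529 (4.13%) an unadjusted p under 0.05. Both genes were near the floor. H2al3, a histone H2A variant, was at 3, 3, 3 and 2 TPM in E20 tumors, 0 in all E19 tumors and 0 in all livers. It reached the level for testing through the E20 tumors alone, so its call carries no weight as a test. D230044P21Rik was at 2 TPM in all E20 tumors, 0 in all E19 tumors and 1 or 2 in all livers. For Malat1 the difference between tissues was 0.71 and for Neat1 1.51, and neither passed.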

How the data were processed

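Per the labels and the study's methods, the authors selected poly-A RNA, sequenced both ends on a NovaSeq X, used GRCm38 as the reference and took gene levels from Salmon as TPM. The deposited values, named counts, are a score: they match TPM that the authors rounded to whole numbers, for 28442 genes in 18 samples, so the depth behind a value is unknown. Genes were matched by Entrez identifier to the RefSeq table of GRCm38.p6 (24476) and to GENCODE vM21 transcripts (24853). Values were divided by trimmed-mean factors (30% of M and 5% of A values trimmed). A gene that reached 1 scaled TPM in 4 or more tumors (2 or more livers) was tested by limma 3.58.1 (R 4.3.3, trend) on log2(scaled value + 1), with Benjamini-Hochberg adjustment. Single measures were tested by exact permutation (scipy 1.17.1, two-sided). A simulation drew independent noise for each gene and changed 200 genes away from the floor, up and down in equal numbers. It recovered 71 of 100 genes changed 2-fold and 91 of 100 changed 4-fold. There were 11 false calls among the unchanged ones of 12004 genes tested. The tumor calls were more numerous and mostly higher, so these rates may not apply to them. Samples were grouped by the tag in their names.

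Members and gene lists were chosen with earlier results of these data known. The rule for named genes took RNAs past the threshold that did not overlap between tags and averaged 2 or more on the log2 scale: the 8 highest and 8 lowest (symbols of Gm and a number or ending in Rik left out), the 6 highest and 4 lowest noncoding, and the 3 most abundant of a list. Other names were added after values were seen. The labels do not say that samples are separate cultures or litters, so p-values measure the spread between these tumors.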

Additional observations from a re-analysis of the deposited data

Results flagged for a closer look

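In a group of 4 to 10 samples, a lowest or highest sample whose gap to the next, as a part of the group's range, passed Dixon's 95% critical value was looked at again. Of 198 groups tested over the RNAs and measures named, 17 passed, where chance gives about 1 in 20, or 9.9. Liver 1 (E20) stood apart most often among the livers. It was low in Lncpint (6 TPM, next 16, ratio 0.909) and high in Abracl (13 TPM, next 3, ratio 0.909), 4632427E13Rik (18 TPM, next 10, ratio 0.889), AI506816 (13 TPM, next 1, ratio 1) and Airn (40 TPM, next 5, ratio 0.897). Liver 3 was high in Ier3ip1 (19 TPM, next 10, ratio 0.9), and liver 2 low in H2ac18 (73 TPM, next 95, ratio 0.917).

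Among E20 tumors, tumor 6 was high in the noncoding share (1.34%, next 0.953%, ratio 0.981), in the long noncoding share (1.14%, next 0.801%, ratio 0.846) and in AI506816 (24 TPM, next 15, ratio 0.9). Without tumor 6 the noncoding share still separated the tags. Tumor 12 was high in Rn18s (5895 TPM, next 2017, ratio 0.842) and Epb41l4aos (5 TPM against 4 in the others, ratio 1), and tumor 8 in Snord17 (293 TPM, next 221, ratio 0.9). Among E19 tumors, tumor 11 was low in Rn18s-rs5 (2198 TPM, next 4378, ratio 0.576) and Uqcrq (212 TPM, next 320, ratio 0.628), tumor 4 high in Huwe1 (38 TPM, next 30, ratio 0.571) and tumor 10 high in Airn (10 TPM, next 3, ratio 0.7).

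In 2 genes the tag difference passed the interaction test in limma between tumors and livers, H2al3 (1.75 on the log2 scale) and D230044P21Rik (1.46, SE 0.21, adjusted p = 0.0158). H2al3 was 0 in all E19 tumors and all livers and was tested only through the E20 tumors. Its call therefore carries no weight as a test. All values of both genes were at 3 TPM or below, and neither call held with tumor 2 included or with a minimum of 5.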

How the results depend on the processing

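The tumor calls (1870; 1396 higher, 474 lower) moved to 2891 (2880 higher, 11 lower) without scaling, 1172 (732 higher) with a minimum of 5, 1028 (810 higher, 218 lower) without both tumors of the shared mouse, 2105 higher with no filter on low values and 884 lower with sample quality weights. Leaving out 1 tumor at a time gave 965 to 1929 calls (782 to 1387 higher, 180 to 542 lower). Tumor 8 gave the lowest total, tumors 1 and 12 gave 1037 and 1038, and the lower calls also fell to 296 without E19 tumor 5. Median-of-ratios scaling (1912), pseudocounts of 0.1 (1775) and 5 (1914), tumor 2 included (1573), age as a covariate (1739), 1 fit with the livers (2043) and, chosen after seeing the data, leaving out tumors 7 and 11 (1844) kept the count within 1.5 times. Of 759 values of the 33 named genes that passed, 667 stayed past the threshold under an alternative, 92 lost it and 0 changed direction; no scaling lost 11, all lower genes.

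The liver calls (394; 380 higher, 14 lower) moved to 2 (2 higher, 0 lower) with a minimum of 5 and to 0 to 41 (0 to 28 higher, 0 to 13 lower) leaving out 1 liver, and the lower calls to 6 with a pseudocount of 0.1. The 2 calls of tag by tissue moved to 31 without scaling and to 0 with tumor 2 included or a minimum of 5. In a fit with the replicate number as a block they moved to 0 (463 genes at an unadjusted p under 0.05), and to 0 in the same samples without the block (434). Samples of the same number share only that number: their deviations correlated at 0.021 on average (-0.160 to 0.171) over 5 pairs. E20 and E19 tumors share no number.

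The differences in noncoding share (0.566 to 0.697 points), length contrast (0.54 to 0.60) and detected genes (1403 to 1590) kept an exact p of at most 0.0167 leaving out 1 tumor. With GENCODE types the noncoding difference was 0.124, and detected genes differed by 566 with tumor 2 and by 633 at a scaled value of at least 1. The cause was not tested for any of these. Rounding to whole TPM limits all genes near the floor.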

Other observations

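Other gene groups were read in the same comparison. Of 251 tested zinc finger genes named Zfp, 53 were higher in E20 tumors and 2 lower (Zfp428 and Zfp771), with a median of 0.29 and with 204 differences above 0, against 11.6% higher and 3.95% lower among all genes. Zfp608 stood at 14, 12, 12 and 13 TPM in E20 tumors and at 2 or 3 TPM in every E19 tumor (1.81, SE 0.17, adjusted p = 2.3e-05 in limma). Of 18 clock genes 4 were higher, all of them repressors of the circadian loop. Per2 was at 26, 21, 17 and 9 TPM against 3 to 7 TPM (1.55, SE 0.29), Per3 at 20, 18, 30 and 5 against 1 to 9 TPM (1.81, SE 0.46), Per1 at 20, 17, 29 and 16 against 5 to 10 TPM (0.87, SE 0.17) and Cry2 at 15, 18, 18 and 11 against 5 to 9 TPM (0.71, SE 0.20). After scaling, only Per1 of these 4 did not overlap between the tags, with Per2 at 8.11 in tumor 12 against up to 9.05 scaled TPM in E19 tumors and Cry2 at 9.91 against up to 11.6. The hour at which the tissues were taken is not given in the sources used here. In livers Per1, Per2 and Per3 differed by 0.71, 1.39 and 1.25 and Cry2 by 0.00.

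Lists for stress and immune signals held the following calls, where 11.6% of all genes were higher and 3.95% lower. Zfp36, which speeds the decay of AU-rich messages, was the 1 higher gene of 25 immediate early genes (0.68), Vegfa, an angiogenic factor, the 1 of 17 hypoxia genes (1.096, SE 0.20, adjusted p = 0.0034), and Stat2 the 1 of 27 interferon-stimulated genes (0.68). Hspe1, a mitochondrial chaperonin, was the 1 lower gene of 16 heat shock genes (-0.53). Of 44 cytochrome P450 genes 2 were higher (Cyp2d13, which RefSeq lists as a pseudogene, and Cyp2j9), of 21 collagens 2 (Col27a1 and Col20a1), and of 9 major urinary protein genes none. These last had medians of 0.22 in tumors and -1.78 in livers, where liver 1 held 245 TPM of Mup1 and the other 5 livers 20683 to 36623.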
